A study of Mus musculus with 10 samples.

Results

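Histone genes of the replication-dependent clusters were described in 10 libraries of mouse cerebellar tissue and medulloblastoma, a cerebellar tumour. The genes were chosen by symbol, as the H2ac, H2bc, H3c and H4c genes and the H1f genes followed by a number, without pseudogenes, and a gene needed at least 10 counts summed over the 10 libraries. Of 39769 gene symbols in the table, 67 had such a symbol and 47 met the count minimum. These were 6 genes for the linker histone H1, 9 for H2A, 11 for H2B, 11 for H3 and 10 for H4. The remaining 20 stayed under the minimum, 4 of them at 0 counts in every library. By RefSeq (GRCm38.p6), 38 of the 47 lay on chromosome 13 and 7 on chromosome 3, the sites of the large mouse histone clusters. The other 2, H1f0 on chromosome 15 and H1f10 on chromosome 6, matched the symbol rule but lie outside the clusters, so the name "clustered histone genes" holds for 45 of 47 and this pair is described apart.

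By label, the Ptch group was cerebellum of mice with the genotype Ptch+/- (4 libraries, Ptch 1 and Ptch 2 from mice of 4 months and the others of 2 months). The NKP group was medulloblastoma of the genotype Nestin-Cre Kmt2dfl/+ Ptch+/- (3 libraries, all at 4 months), and the AKP group medulloblastoma of AtohI-Cre Kmt2dfl/+ Ptch+/- (3 libraries, AKP 3 from a mouse of 4 months and the others of 2 months). All groups thus carried 1 disrupted copy of Ptch1, the receptor gene that holds Hedgehog signalling in check, and none was wild type. Nestin-Cre acts broadly in neural progenitors and Atoh1-Cre in the granule neuron lineage, and in both groups 1 of the copies of Kmt2d, a histone H3 lysine 4 methyltransferase gene, was floxed.

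Most histone mRNA is made in S phase from these clusters, when new nucleosomes are packed onto replicated DNA. Unlike other mRNAs, these transcripts normally end in a short stem-loop in place of a poly-A tail, and the stem-loop binding protein Slbp carries them through processing, export and translation. Some cluster genes also give longer transcripts that end in a poly-A tail, mainly in cells that have stopped dividing. The libraries here were made from poly-A RNA, so they sample such tailed transcripts and only the remnant of the stem-loop class. A low value therefore does not give the amount of a histone mRNA in the tissue.

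Because the 3′ end decides what a poly-A library can hold, the stem-loops of the genes discussed below are shown first, read from GENCODE vM21 transcripts (GRCm38). The paired arms are in capitals, and the loop and 5 flanking bases on each side in lower case, written 5′ to 3′ as DNA.
H1f2: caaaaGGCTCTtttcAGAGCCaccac
H2ac18: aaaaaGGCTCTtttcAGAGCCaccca
H2ac11: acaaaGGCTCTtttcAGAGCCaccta
H2bc6: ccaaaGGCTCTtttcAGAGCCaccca
H3c15: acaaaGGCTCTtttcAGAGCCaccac
H3c3: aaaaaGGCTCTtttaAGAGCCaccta
H4c8: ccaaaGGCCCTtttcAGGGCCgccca
H4c9: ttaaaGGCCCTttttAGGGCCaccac
The letters of the histone stem-loop consensus were found in the transcripts of 33 of the 45 clustered genes and in 0.311% of all 21877 protein-coding genes searched. Of these 33, 18 genes of the H1, H2A, H2B and H3 types shared the same 16 bases, as in H2ac18, and 5 others had the form of H3c3. The 7 H4 genes with arms like H4c8 or H4c9 differed from the H2A genes in the arms themselves. Several of the clustered genes without a match, such as H2ac10 and H2bc13, have annotated transcripts too short to hold much sequence past the coding part, and absence from these transcripts says nothing of the gene itself.

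The annotated ends differed between the genes. The GENCODE transcript of H1f2 went on for 840 bases after the stem-loop, that of H2bc6 for 1861 and that of H3c15 for 377, whereas those of H2ac18, H2ac11 and H4c8 stopped 35, 23 and 46 bases after it. The longest transcripts of H2bc21 (2620 bases) and H2bc4 (1156 bases) held no stem-loop letters. The poly-A signal AATAAA stood in the last 50 bases of a transcript of 7 of the 14 genes with enough counts to be tested and of 3 of the 33 others.

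Counts were low for nearly all of these genes. Level is given as CPM, counts scaled to a common library size with TMM factors, in the order of library numbers within each group, and between genes only as CPM per kb of the longest GENCODE transcript. After the filter on low counts, 14 of 47 genes could be tested (12 clustered genes, H1f0 and H1f10), and 37 of 47 had a mean under 1 CPM. H1f0 and H1f10 held 72.2% of all counts of the 47 genes, the 12 tested clustered genes 26.5% and the 33 untested ones 1.25%. Just 4 clustered genes, H2bc4, H2ac18, H2bc21 and H1f2, held 24.0%.

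In CPM per kb, H1f0 came first with a mean of 151, followed by H2bc4 with 54.3, H2ac18 with 40.8 and H1f10 with 25.4. H1f2, H4c8 and H2bc21 came next at 7.45, 6.14 and 6.05 CPM per kb, then H4c9 at 3.58, H3c15 at 1.68 and H2bc6 at 1.09. Over the libraries, H1f0 lay wholly above H2bc4, and H2bc21 wholly above H4c9. Every other pair of neighbours in this order overlapped and is not ordered beyond its spread. These levels depend on the annotated length, which for H3c15 and H2bc6 includes a long stretch past the stem-loop.

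**Figure D1:**
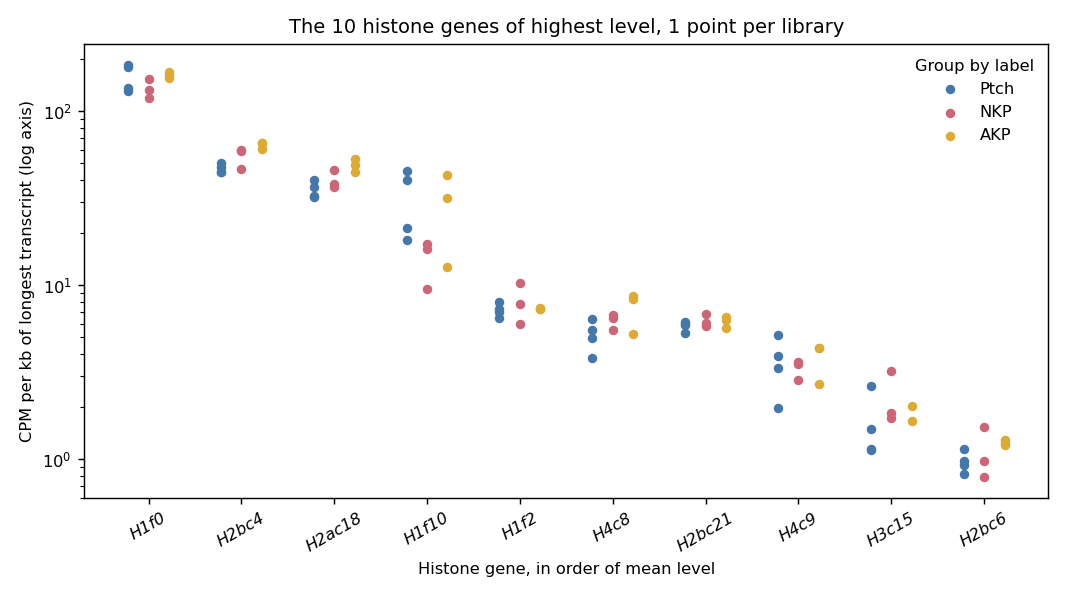
Level of the 10 highest histone genes in CPM per kb of the longest transcript (log axis), with 1 point per library and colours for the groups by label. H1f0 lies highest, H2bc4 and H2ac18 follow, and H1f10 scatters widely; H3c15 in AKP 2, at 0 counts, is not drawn.

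The libraries themselves limit the comparisons. Total counts ran from 12300430 to 19348991 per library. Kmt2d, the floxed gene, was at 52.6 to 68.4 CPM in the libraries labelled Ptch, at 33.2, 46.9 and 58.0 CPM in the NKP libraries and at 34.3 to 43.6 CPM in those labelled AKP, so that NKP 3 lay within the Ptch range, against its label. By the chi-square of their counts per degree of freedom, NKP 1 was closest to AKP 1 (3.44, against 15.7 to NKP 2) and NKP 3 to Ptch 4 (3.81, against 15.1 to NKP 2), values near those of Ptch 1 with Ptch 2 (3.46) and Ptch 3 with Ptch 4 (3.28). Whether libraries were exchanged was not tested, and this bears on every comparison of the groups. Ptch 1, Ptch 3, NKP 3 and AKP 3 went against their sex label in Y-linked expression, and NKP 2 had Xist at 74.8 CPM together with Y-linked genes. The proliferation marker Mki67 was at 84.1, 80.4, 28.8 and 27.3 CPM in the Ptch libraries, 0.654, 0.719 and 11.8 CPM in the NKP libraries, and 0.575, 49.1 and 38.8 CPM in the AKP libraries. It thus was lowest in 3 libraries labelled medulloblastoma. Atoh1, which granule neuron precursors express, was listed at 0 in NKP 1 and AKP 1. The cerebellar markers Gabra6 (granule neurons) and Pcp2 (Purkinje cells) were above 184 CPM in every library, tumours by label included. In tissue of this kind, fewer cells of a type and less RNA per cell cannot be told apart.

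The linker histone genes are taken first. H1f0 encodes H1.0, a replacement linker histone that is abundant in differentiated cells and has a polyadenylated mRNA. It was at 379, 366, 280 and 268 CPM in the Ptch libraries, at 314, 270 and 242 CPM in the NKP libraries and at 316, 346 and 331 CPM in the AKP libraries. The AKP libraries lay inside the Ptch range, and all lay above the highest NKP library, AKP 1 by little. H1f0 passed no test of the edgeR fit (log2 fold change -0.23 ± 0.133 SE and adjusted p = 0.385 in NKP against Ptch; 0.27 ± 0.142 SE and adjusted p = 0.348 in AKP against NKP).

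H1f10, which encodes the divergent linker histone H1.10 (H1x), had a coefficient of variation of 52.2% over the libraries, beside 51.6% for H3c15 and less for the other 8 of the 10 genes of highest level. Its level was 49.0, 54.8, 25.9 and 22.1 CPM in the Ptch libraries, 20.9, 11.6 and 19.5 CPM in the NKP libraries and 15.5, 52.0 and 38.2 CPM in the AKP libraries. The 4 highest libraries (Ptch 1, Ptch 2, AKP 2 and AKP 3) were also the 4 highest in Mki67, and AKP 1 lay far below the other AKP libraries. All NKP libraries lay below all Ptch libraries, but the difference did not pass (-1.14 on the log2 scale, SE 0.497, edgeR adjusted p = 0.297). AKP against Ptch was -0.10 (SE 0.477), with overlapping groups and no steady direction. It ran from -0.49 without AKP 2 to 0.25 without AKP 1, and was 0.49 among libraries of the same age label and 0.56 without Ptch 1 and Ptch 2.

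H1f2, for the somatic linker histone H1.2, was steady by comparison. It was at 11.3, 10.1, 12.5 and 10.8 CPM in Ptch, 12.1, 15.9 and 9.31 CPM in NKP and 11.5, 11.3 and 11.3 CPM in AKP. The groups overlapped in every comparison, and it passed in none. The remaining linker genes H1f3, H1f4 and H1f5 had 17, 43 and 17 counts in all 10 libraries together.

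Among core histone genes, H2bc4 and H2ac18 were higher in the libraries labelled AKP than in those labelled Ptch, and these were the only histone genes that passed the test in any comparison of the edgeR fit. H2bc4 (chr13:23684199-23692480, Hist1h2bc in older naming) encodes a canonical H2B. It was at 51.4, 51.5, 54.8 and 58.4 CPM in the Ptch libraries, 69.3, 67.8 and 53.6 CPM in the NKP libraries and 69.7, 75.3 and 76.0 CPM in the AKP libraries. Every AKP library lay above every Ptch and NKP library, while NKP 3 lay among the Ptch libraries. H2bc4 rose 1.36-fold in AKP against Ptch, from 54.0 ± 3.32 (SD, n = 4) to 73.7 ± 3.45 CPM (SD, n = 3; log2 fold change 0.45, SE 0.0997, edgeR adjusted p = 0.0282).

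H2ac18 (chr3:96245497-96246052, Hist2h2aa1) encodes an H2A. Its level was 23.5, 21.5, 19.04 and 18.8 CPM in the Ptch libraries, 26.9, 22.4 and 21.5 CPM in the NKP libraries and 28.5, 30.9 and 25.9 CPM in the AKP libraries. The AKP and Ptch libraries did not overlap, and NKP 1 lay inside the AKP range. H2ac18 rose 1.38-fold in AKP against Ptch, from 20.7 ± 2.21 (SD, n = 4) to 28.4 ± 2.47 CPM (SD, n = 3; log2 fold change 0.46, SE 0.121, edgeR adjusted p = 0.0454). Of the windows of 50 bases in its transcript, 89.4% also occur in Gm20634, a GENCODE gene whose transcripts also hold every such window of the neighbouring copy H2ac19, so the division of reads between copies is uncertain. H2ac18 and H2ac19 summed gave the same log2 fold change, 0.46 (adjusted p = 0.0435). That sum could hardly differ, since H2ac19 had 72 counts in all and H2ac18 3645. Gm20634 was not part of the sum, because the deposited table has no such symbol.

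So 2 of 14 tested histone genes passed in AKP against Ptch, both higher, where 5.68% of all 15617 genes passed and 3.38% passed as higher. The median log2 fold change of the 14 was 0.06, and that of all genes -0.02. The library median of the tested histone genes, as log2(CPM + 0.5), had a within-group SD of 0.22. H2bc4 kept its call in 12 and H2ac18 in 9 of 24 alternative fits. Both were lost without Ptch 1, Ptch 2, Ptch 3, AKP 2 or AKP 3, without the 4 libraries against their sex label, with the replicate number as a block, and after a correction for length and GC trends of the transcripts. Apart from that last fit, the values in the fits just named were at 0.41 to 0.49 for H2bc4 and 0.40 to 0.57 for H2ac18, while the calls over all genes fell from 887 to between 0 and 321. Both calls were also lost with sex label as a covariate and without the 4 libraries and NKP 2. They were lost too among libraries of the same age label (H2bc4 0.35, H2ac18 0.64) and without Ptch 1 and Ptch 2 (0.39 and 0.59). In the length and GC fit H2bc4 had 0.12 (adjusted p = 0.540) and H2ac18 0.04 (adjusted p = 0.899). That fit called 14 of all 15617 genes in AKP against Ptch, so nearly all calls of the comparison were lost with these 2.

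Short transcripts as a class were also higher in the AKP than in the Ptch libraries. Over the 560 tested genes with a longest transcript under 1000 bases, the median deviation from the gene's 10-library mean (log2(CPM + 0.1)) was -0.12, -0.07, -0.15 and -0.22 in the Ptch libraries, 0.16, -0.16 and -0.19 in the NKP libraries and 0.15, 0.46 and 0.22 in the AKP libraries. Over the 3402 genes above 5000 bases it was 0.04 to 0.11 in the Ptch libraries and -0.17 to -0.09 in the AKP libraries. The transcript of H2ac18 has 586 bases and that of H2bc4 1156. Marker sums of red blood cells (6 of 6 genes detected in every library) were 710.8 to 816 CPM in Ptch, 782.5 to 2486 in NKP and 1742 to 2233 CPM in AKP. Those of oligodendrocytes (10 of 10 detected in every library) were 6025 to 7393, 7590 to 12239 and 8821 to 11039 CPM. Those of endothelial cells (8 of 8 detected in every library) were 140.1 to 190.4, 206.7 to 248.997 and 198.8 to 242 CPM. Granule neuron precursor markers (9 or 10 of 10 genes detected) summed to 1444.5 to 1620 CPM in Ptch and 1161 to 1443 CPM in AKP. Sums for Purkinje cells, mature granule neurons, astrocytes with Bergmann glia, and microglia overlapped between AKP and Ptch. The part of these cell types in the rise of H2bc4 and H2ac18 was not tested.

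**Figure D2:**
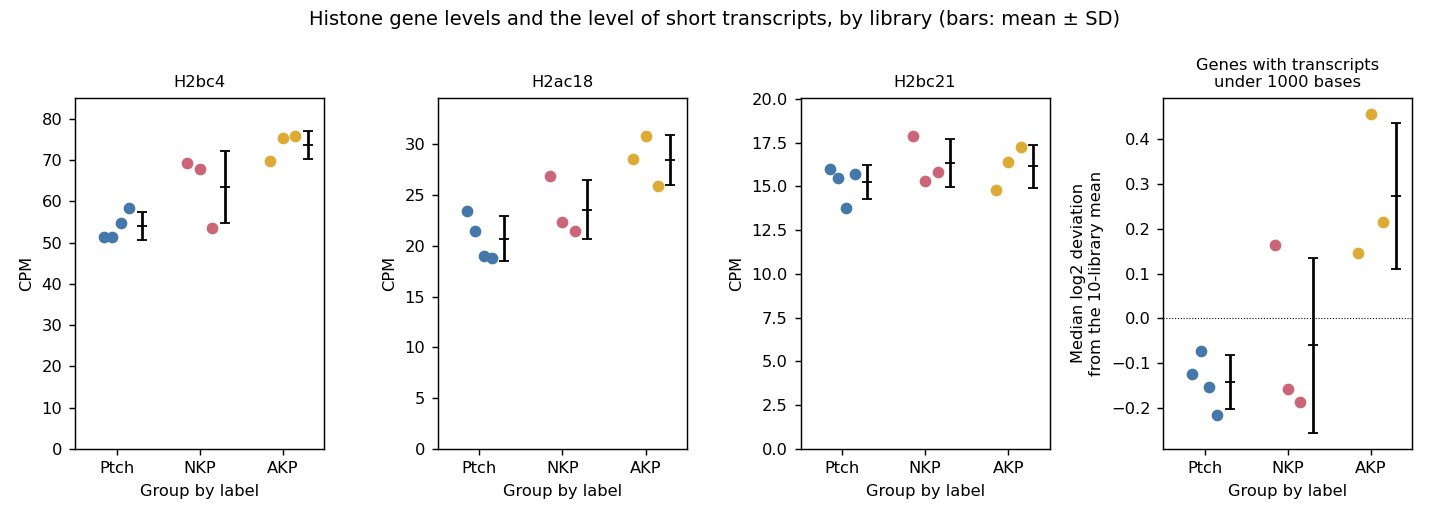
CPM of H2bc4, H2ac18 and H2bc21 in each library by group, and at right the median log2 deviation of the 560 tested genes with transcripts under 1000 bases; bars are mean ± SD. H2bc4 and H2ac18 lie higher in AKP (69.7 to 76.0 and 25.9 to 30.9 CPM) than in Ptch, as do short transcripts, while the groups of H2bc21 overlap.

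H2bc21 (Hist2h2be), an H2B gene with a long polyadenylated transcript, was the steadiest gene tested. It was at 16.01, 15.5, 13.8 and 15.7 CPM in Ptch, 17.9, 15.3 and 15.8 CPM in NKP and 14.8, 16.4 and 17.2 CPM in AKP. Its coefficient of variation over the 10 libraries was 7.36%, against 6.38% from counting alone at its mean count. The groups overlapped, and it passed in no comparison. The coefficients of variation of H1f0, H2bc4 and H1f10 were 14.6%, 15.7% and 52.2%, against 1.44%, 3.22% and 4.56% from counting.

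H2bc6, another H2B gene with an annotated poly-A end, was at 2.31, 2.07, 2.44 and 2.85 CPM in Ptch, 2.45, 3.81 and 1.97 CPM in NKP and 3.21, 3.10 and 3.02 CPM in AKP. The AKP libraries lay above the Ptch libraries, but the difference did not pass (0.36, SE 0.268, edgeR adjusted p = 0.430). In AKP against Ptch 3 of 14 tested histone genes, H2bc4, H2ac18 and H2bc6, thus did not overlap, where 24.8% of all genes tested did not.

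Of the H4 genes, which encode identical proteins from divergent mRNAs, H4c8 and H4c9 alone reached the test. H4c8 was at 3.001, 2.32, 1.78 and 2.60 CPM in Ptch, 3.03, 3.15 and 2.57 CPM in NKP and 2.47, 3.90 and 4.05 CPM in AKP. AKP 2 and AKP 3 were the highest libraries and AKP 1 lay inside the Ptch range (AKP against Ptch 0.53, SE 0.266, edgeR adjusted p = 0.237). H4c9 was at 2.85, 3.77, 1.43 and 2.41 CPM in Ptch, 2.62, 2.54 and 2.08 CPM in NKP and 1.97, 3.17 and 3.17 CPM in AKP, with full overlap.

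Of the H3 genes, H3c15 had the highest level. It was at 1.15, 2.69, 1.17 and 1.52 CPM in Ptch, 1.88, 3.26 and 1.75 CPM in NKP and 2.05, 0 and 1.69 CPM in AKP. The groups overlapped in every comparison. The near-identical copy H3c14 had 12 counts in AKP 2, where H3c15 had 0, and the pair summed to 0.866 CPM there, the lowest of the 10 libraries. H3c14, H2ac19 and H2bc23 were tested as well and passed in no comparison.

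**Figure D3:**
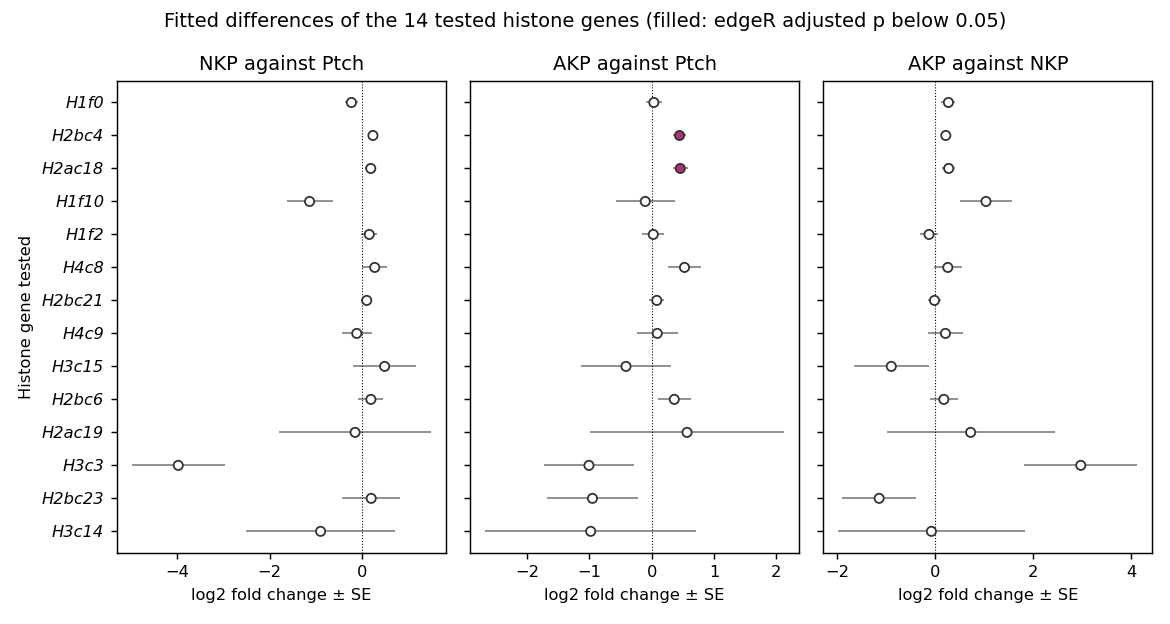
Log2 fold change ± SE of the 14 tested histone genes in the 3 comparisons, in order of level per kb from the top; the horizontal scales differ. Filled points, H2bc4 and H2ac18 in AKP against Ptch, have an edgeR adjusted p below 0.05; H3c3 and H1f10 lie lowest in NKP against Ptch at -3.97 and -1.14.

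No histone gene passed in NKP against Ptch, nor did any gene at all (0% of 15617). At an unadjusted p below 0.05 it was 2 of 14 histone genes, H3c3 and H2bc4, against 17.0% of all genes, and DESeq2 called 1, H3c3, where it called 2.60% of all genes. The median log2 fold change of the 14 was 0.13, beside 0.01 for all genes and the within-group SD of 0.22 given above. Over all 47 genes, fitted with no filter beyond the 10 counts, it was -0.43, with 17 of 47 above 0, so the median turned with the filter. H2bc4 had 0.23 (SE 0.0999, edgeR adjusted p = 0.265). H3c3, a canonical H3 gene, had 10, 19, 16 and 7 counts in the Ptch libraries, 0, 0 and 2 in the NKP libraries and 0, 7 and 8 in the AKP libraries. It was at 0 counts in NKP 1, NKP 2 and AKP 1, the libraries lowest in Mki67. Its fitted log2 fold change was -3.97 (SE 1.003, edgeR adjusted p = 0.218), and ran from -6.55 without NKP 3 to -3.40 without NKP 2. H3c3 passed the count filter through the Ptch libraries and was no longer tested without Ptch 1, Ptch 2 or Ptch 3, so its lower value in NKP is a description. In NKP against Ptch the groups did not overlap for H3c3 and H1f10, 2 of 14, where 15.9% of all genes tested did not.

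Age enters this comparison, since all NKP libraries and just Ptch 1 and Ptch 2 were labelled 4 months. Among libraries of that age edgeR called 5 of 18 tested histone genes, all lower in NKP: H1f10 (log2 fold change -1.59, adjusted p = 0.000542), H2ac11 (adjusted p = 0.00338), H3c3 (-4.20, adjusted p = 0.0107), H1f0 (-0.44, adjusted p = 0.0228) and H2bc11 (-3.36, adjusted p = 0.0277). In that fit 16.2% of all genes passed. H2ac11, H3c3 and H2bc11 met its count filter through the Ptch libraries, so that their lower values are a description. With age label as a covariate over all libraries 1 histone gene passed, H3c3 (-4.29, adjusted p = 0.0347), where 5.97% of all genes passed. Ptch 1 and Ptch 2 are the pair highest in Mki67, so age and that pair cannot be told apart. Without Ptch 1 and Ptch 2 no histone gene passed in NKP against Ptch by edgeR, with H1f10 at -0.48. At an unadjusted p below 0.05 it was then 1 of 12 tested histone genes, H2ac18 at 0.31 and so higher in NKP, against 2.99% of all genes.

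In AKP against NKP no histone gene passed (0 of 14, where 0.00640% of all genes passed), with 1 at an unadjusted p below 0.05, H3c3, against 16.9% of all genes, and 0 calls by DESeq2, against 1.47%. The smallest p values were those of H3c3 (log2 fold change 2.97, SE 1.16, edgeR adjusted p = 0.248), H2ac18 (0.27, SE 0.130, adjusted p = 0.306), H2bc4 (0.21, SE 0.107, adjusted p = 0.322) and H1f0, given above. The groups did not overlap for 2 of 14, H1f0 and H2bc4, where 16.2% of all genes tested did not. Leaving out AKP 1 gave 2 calls, H3c3 (3.51, adjusted p = 0.0414) and H2ac11 (adjusted p = 0.0493), 2 of 18 tested, where 8.49% of all genes passed. H3c3 had 0, 0 and 2 counts in the NKP libraries and H2ac11 had 0 in each. Both genes met the count filter through libraries outside NKP, so their higher values in AKP are a description.

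The 33 clustered genes under the filter were near the limit of detection, since 1 count equals 0.0509 to 0.0822 CPM and a count of 0 allows up to 0.153 to 0.247 CPM. Their 912 counts in all summed to 10.2, 8.89, 5.29 and 4.50 CPM in the Ptch libraries, 3.27, 4.59 and 3.39 CPM in the NKP libraries and 3.37, 8.37 and 6.63 CPM in the AKP libraries. The sum was highest in Ptch 1, Ptch 2, AKP 2 and AKP 3, the 4 libraries highest in Mki67, and lowest in NKP 1, AKP 1 and NKP 3. Among the other libraries the order differed in part from that of Mki67. NKP 2, with Mki67 at 0.719 CPM, had a higher sum than Ptch 4 (27.3 CPM) and NKP 3 (11.8 CPM). A link with Mki67 was not tested. Of the 33 genes, 29, 28, 25 and 19 had a count in the Ptch libraries, 15, 20 and 18 in the NKP libraries and 17, 28 and 23 in the AKP libraries.

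**Figure D4:**
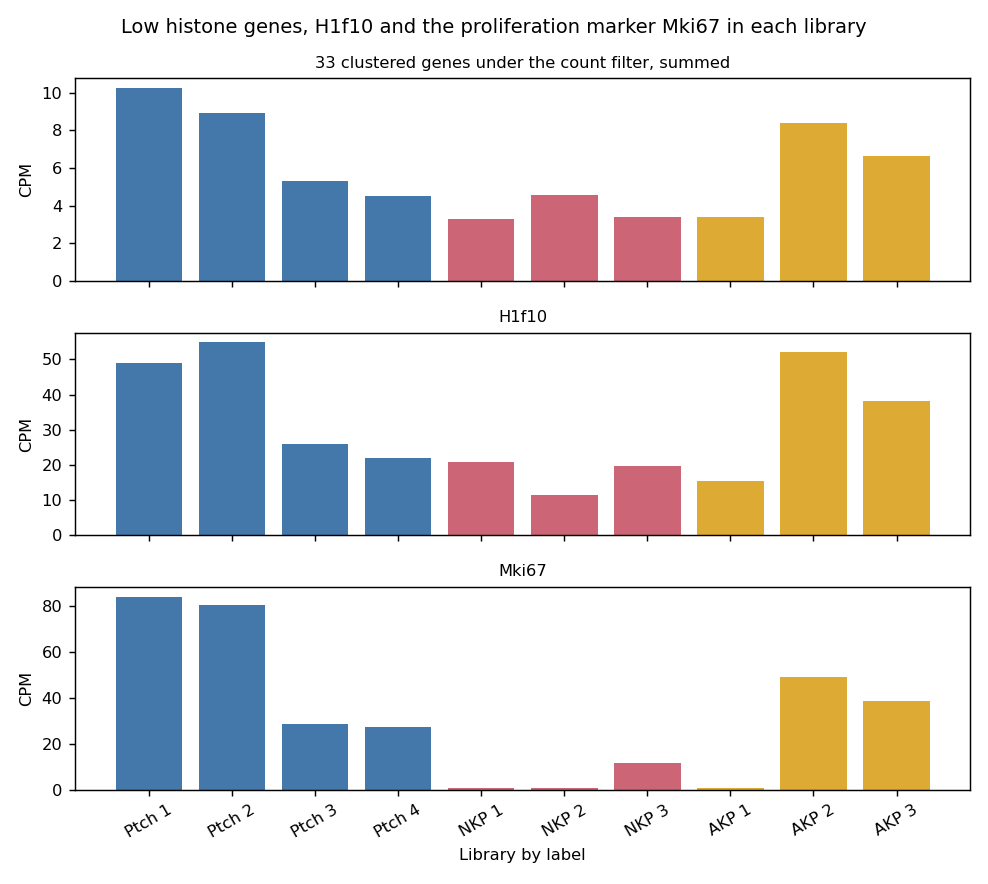
Bars give the CPM of the 33 clustered histone genes under the count filter (summed), of H1f10 and of Mki67 in each library, coloured by group. All 3 are highest in Ptch 1, Ptch 2, AKP 2 and AKP 3; the histone sum runs from 3.27 to 10.2 CPM.

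Split by histone type, these sums rest on few counts, and differences between types were not tested. The 3 untested H1 genes summed to 0.0818 to 0.737 CPM per library. The 7 untested H2A genes summed to 3.85, 2.79, 1.37 and 0.697 CPM in Ptch, 0.327, 0.497 and 0.657 in NKP and 0.740, 1.73 and 1.18 in AKP. The 7 untested H2B genes summed to 2.46, 2.22, 1.02 and 0.634 CPM in Ptch, 0.164, 0.884 and 0.493 in NKP and 0.740, 2.02 and 1.84 in AKP. Both thus spanned a wide range, with NKP 1 lowest. The 8 untested H3 genes ran from 0.383 CPM in NKP 3 to 2.45 CPM in AKP 2, and Ptch 4 at 1.58 CPM lay above Ptch 1 and Ptch 3. The 8 untested H4 genes stayed between 0.740 and 2.23 CPM, with NKP 1 and NKP 2 at 1.72 and 1.71 CPM above Ptch 2 to 4.

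H2ac11, an H2A gene, had the most counts among them. It had 17, 16, 11 and 6 counts in the Ptch libraries, 0 in each NKP library and 0, 2 and 9 in the AKP libraries. Pooled over libraries it was at 0.738 CPM in Ptch, at least 11.95-fold higher than in NKP (floor of 3 counts over the NKP group). In a fit of every gene with at least 10 summed counts, H2ac11 had an unadjusted p of 0.000571 and an edgeR adjusted p of 0.243. In that fit 10 of 47 histone genes had an unadjusted p below 0.05 in NKP against Ptch, 7 of them lower in NKP, where 14.8% of all genes did. Genes of few counts, such as H2ac11, met the minimum mainly through the groups where they were high. H2ac11 was also singled out after its values were seen. Differences of such genes are therefore a description. H2bc11 had 9, 21, 2 and 5 counts in Ptch, 0, 4 and 0 in NKP and 4, 6 and 4 in AKP, and H3c10 had 5, 9, 5 and 7, then 0, 0 and 2, then 0, 13 and 5. Near-identical copies make single values uncertain, since 23 of the 47 genes share over 50% of their 50-base windows with another gene.

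Genes that switch on the clusters or process their mRNA come next. Slbp was at 38.0 to 41.0 CPM in Ptch, 29.7, 34.5 and 32.0 CPM in the NKP libraries and 34.8, 40.3 and 37.7 CPM in the AKP libraries (NKP against Ptch -0.29, SE 0.0924, edgeR adjusted p = 0.218). All NKP libraries lay below all Ptch libraries. Npat, the cyclin E-Cdk2 substrate that switches on the clusters at the start of S phase, was at 11.01 to 17.2 CPM in Ptch, 14.1 to 17.8 in NKP and 10.9 to 14.2 in AKP, and passed in no comparison. Over all genes 0% passed in NKP against Ptch, 0.00640% in AKP against NKP and 5.68% in AKP against Ptch. Of 30 genes for histone gene activation and mRNA processing, 0 passed in NKP against Ptch and in AKP against NKP, and 1 in AKP against Ptch. That was Upf1, an RNA helicase that takes part in histone mRNA decay, which was lower in AKP, at 50.9 to 53.8 CPM, than in Ptch, at 63.4 to 68.4 CPM (-0.32, SE 0.0824, edgeR adjusted p = 0.0412; the call held in 8 of 24 alternative fits). The list's median log2 fold changes were -0.19, -0.14 and -0.02 in the 3 comparisons.

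Replacement variants are made outside S phase from polyadenylated mRNA. H2az1, for H2A.Z, was at 320.8 to 471 CPM in Ptch, 274 to 288 CPM in NKP and 298, 560 and 449 CPM in the AKP libraries. Its NKP libraries lay below all others, AKP 1 came next above them, and the differences did not pass (NKP against Ptch -0.47, SE 0.198, edgeR adjusted p = 0.265; AKP against NKP 0.64, SE 0.210, adjusted p = 0.228). H3f3b, for H3.3, was at 582 to 826 CPM in Ptch, 540 to 611 CPM in NKP and 629 to 821 CPM in AKP, and had -0.27 in NKP against Ptch (adjusted p = 0.320) and 0.36 in AKP against NKP (adjusted p = 0.258). None of 9 tested replacement variants passed in any comparison of the edgeR fit reported. All 9 lay below 0 in NKP against Ptch (median -0.47) and 6 of 9 above 0 in AKP against Ptch (median 0.09). Among 24 alternative fits, H2az1 passed in 1 in NKP against Ptch and in 3 in AKP against NKP. H3f3b passed in 1 of 24 in NKP against Ptch and in none in AKP against NKP. Neither passed in AKP against Ptch in any alternative fit. Of 25 chaperone and assembly genes 0 passed in each comparison, with medians of -0.26, -0.20 and 0.17. The shares of all genes that passed, given above, were 0% in NKP against Ptch, 5.68% in AKP against Ptch and 0.00640% in AKP against NKP. The 30 S phase and replication genes also had 0 calls, with medians of -1.59, -0.53 and 1.03, and summed to 563 to 1158 CPM in Ptch, 309 to 428 CPM in NKP and 315, 865 and 717 CPM in the AKP libraries.

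As a view on how much untailed RNA the libraries hold, 9 of 22 RNAs of other classes without a poly-A tail had counts. They summed to 7.31 to 14.8 CPM in Ptch, 10.4 to 16.03 CPM in NKP and 10.5 to 16.6 CPM in AKP, with the highest sums in AKP 1 and NKP 1. These 2 libraries were among the 3 lowest in the sum of untested histone genes. The sums of untailed RNA rest on few genes, and their relation to the histone sums was not tested.

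Promoters were available from RefSeq (GRCm38.p6) for 42 of the 47 genes, as windows of equal length that reach from before to just after the start. The letters CCAAT, on either strand, stood in 9 of 9 H2A, 9 of 9 H2B and 9 of 9 H3 promoters, in 4 of 6 H1 and 2 of 9 H4 promoters, and in 41.06% of all 27025 genes' promoters. The octamer ATTTGCAT stood in 5 of 9 H2B and 2 of 9 H2A promoters and in none of the H1, H3 and H4 promoters, against 1.97% of all. TATAAA stood in 20 of 42, against 15.67%. None of these motifs holds another, and paralogs share promoter sequence, so the counts are not independent. The last 100 bases before the start are shown for H2ac18, which rose in AKP against Ptch, and H1f10, which had no steady direction in AKP against Ptch, with any of the 3 motifs in capitals. They lie at chr3:96245397-96245496 (plus strand) and chr6:87981483-87981582 (minus strand).
H2ac18: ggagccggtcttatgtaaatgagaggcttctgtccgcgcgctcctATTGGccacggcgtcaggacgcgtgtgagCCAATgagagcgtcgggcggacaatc
H1f10: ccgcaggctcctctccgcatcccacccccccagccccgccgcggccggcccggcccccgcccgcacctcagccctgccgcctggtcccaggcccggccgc
The stretch of H2ac18 held CCAAT once on each strand, and that of H1f10 held none of the 3 motifs. That of H1f2 (log2 fold change 0.026 in AKP against Ptch) also held CCAAT, and that of H4c8 (0.53) held none. H2bc4 was among the genes without a promoter window. A link between the motifs and the differences of the groups was not tested.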

How the data were processed

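Poly-A RNA of 10 libraries (4 Ptch, 3 NKP, 3 AKP by label) was made into TruSeq libraries, per the labels' protocols. The deposited table holds expected counts per gene symbol, here read as RSEM estimates rounded by the authors because each value is whole. The submitters' processing notes name Trim Galore, STAR, RSEM and GRCm38, without versions. The annotation the authors used is not given in the sources used here. RSEM divides reads among near-identical histone copies by estimation.

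Genes were kept by filterByExpr with the 3 groups (15617 genes), scaled by TMM and tested in 1 edgeR 4.0.16 quasi-likelihood fit (R 4.3.3, robust, no covariates), with Benjamini-Hochberg adjustment over all genes and a threshold of 0.05. SE is the log2 fold change divided by the square root of F. The fit was tested on simulated counts. RefSeq symbols matched 47 of 47 genes, and GENCODE vM21 gave transcripts by Entrez ID. Length and GC trends (lowess, span 0.3) used the 92.1% of tested genes with a length and GC value. DESeq2 1.42.0, other scalings, covariates and left-out libraries were alternatives. The genes, lists and tests were chosen with earlier results of these data known. The genes named were the 10 of highest level per kb, in each comparison those that passed or else the 4 of smallest p, Slbp, Npat, H2az1 (H2afz in older naming) and H3f3b, and up to 3 genes that passed from each list. H2ac11, H2bc11, H3c10, H4c14, H1f3 to H1f5 and the gene sums were singled out after their values were seen. The labels do not state whether replicates are different mice, and p-values therefore reflect only how these libraries vary, which may be technical.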

Additional observations from a re-analysis of the deposited data

How the results depend on the processing

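The number of histone genes past the threshold in AKP against Ptch (2) was 0 with sex label as a covariate, 0 after the length and GC correction, 0 among libraries of the same age label, 0 without the 4 libraries against their sex label, 0 without those and NKP 2, and 0 without Ptch 1 and Ptch 2, the last 3 chosen after seeing the data. Over all genes these fits called 231, 14, 0, 0, 0 and 0, in that order, against 887 in the edgeR fit reported. The number of histone genes ran from 0 to 2 with 1 library left out at a time, and was 1 without Ptch 4, NKP 2 or AKP 1. Over all genes, the fits with 1 library left out called 0 to 1459. With the replicate number as a block no histone gene passed, where 0 of 15617 genes did. The replicate numbers do not pair the libraries, since same-numbered libraries correlated in their deviations from the group means at -0.358 to 0.365, with 3 of 9 pairs over 0.1. In NKP against Ptch the number (0) was 1 by DESeq2, 1 with age label as a covariate and 5 among libraries of the same age label, in fits that called 2.60%, 5.97% and 16.2% of all genes, against 0% in the edgeR fit reported. In AKP against NKP it ran from 0 to 2 with 1 library left out, the 2 without AKP 1. The cause was not tested, except that fits with fewer libraries have fewer samples.

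Over the tests that the naming rule in the methods picks, 10 alternative values changed sign and none of these passed the threshold. H1f10 in AKP against Ptch, outside that rule, also changed sign, as given with its values. After the length and GC correction H2ac18 and H2bc4 had -0.12 and -0.036 in AKP against NKP, and H2az1 and H3f3b -0.17 and -0.036 in AKP against Ptch. With 1 library left out H2az1 ran there from -0.050 (without AKP 2) to 0.38 (without AKP 1). In NKP against Ptch H1f0 had 0.0014 without Ptch 1 and Ptch 2. Npat in that comparison ran from -0.016 (without Ptch 1) to 0.18 (without Ptch 4) with 1 library left out, and had -0.0026 without NKP 2, -0.17 without the 4 libraries and NKP 2, and -0.075 without Ptch 1 and Ptch 2. The cause was not tested. Upper quartile scaling made 741 of 994 calls over all genes higher in AKP than in Ptch, against 528 of 887. The median over tested histone genes ran from -0.45 to 0.29 in NKP against Ptch, -0.11 to 0.26 in AKP against Ptch and -0.09 to 0.35 in AKP against NKP. Low counts limit 33 of 47 genes.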

Other observations

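H3c14 and H3c15, near-identical H3 copies on chromosome 3, differed between libraries in which copy held the counts. H3c15 had 15, 52, 23, 24, 23, 59, 32 and 25 counts in Ptch 1 to 4, NKP 1 to 3 and AKP 1, then 0 in AKP 2 and 23 in AKP 3. H3c14 had 18, 0, 21, 0, 0, 0, 16 and 0 counts in the same libraries, then 12 and 0. Their sum ran from 0.866 CPM in AKP 2 to 3.26 CPM in NKP 2. H2ac19 was at 0 counts in 5 libraries and had 28 in Ptch 4, beside 297 of H2ac18 there.

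H2bc23 was highest in NKP 2, Ptch 2 and Ptch 1, at 1.27, 1.03 and 0.847 CPM, and shares 97.3% of its 50-base windows with the GENCODE gene Hist1h2br. H4c14, an H4 gene on chromosome 3 with a long annotated transcript, had 0, 0 and 0 counts in Ptch 2 to 4 and 1 in Ptch 1, 1, 6 and 4 in the NKP libraries and 0, 0 and 3 in the AKP libraries (NKP against Ptch edgeR adjusted p = 0.286 with no filter beyond 10 counts). H4c14 met the count minimum through the NKP libraries, so its higher value there is a description.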
